A study of Mus musculus with 32 samples.

Results

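The genes described here bear on the identity and maturity of the pancreatic β cell. They are the transcription factors *Pdx1*, *Mafa*, *Nkx6-1*, *Nkx2-2*, *Neurod1*, *Pax6* and *Isl1*, the secreted maturity marker *Ucn3*, and *Aldh1a3*, an enzyme known from β cells that lose their mature state. They were taken by gene symbol from the deposited table of normalized expression, and all 9 were found, each on 1 row, among 22850 genes.

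Islets were taken from adult mice of the genotype MIP-GFP; RIP-rtTA; TetO-VEGF-A on a C57BL/6 background, in which doxycycline (Dox) in the drinking water turns on a human VEGF-A transgene in β cells. The rat insulin promoter drives the Dox-dependent activator and the mouse *Ins1* promoter drives GFP, so every mouse, untreated controls included, carried all 3 transgenes, and the sort itself selected cells in which an insulin promoter was active. In this model VEGF-A induction is followed by β cell loss, and its withdrawal by β cell recovery. Untreated mice gave the No Dox samples, mice given Dox for 1 week the 1wk Dox samples, and mice 1 week after Dox was stopped the 1wk WD (withdrawal) samples. GFP+ β cells had 4, 5 and 3 samples at these times, endothelial cells (ECs, sorted on CD31) 4, 1 and 5, and macrophages (MΦs, sorted on CD11b) 4, 2 and 4. Each sample pooled islets of several mice, and p-values measure the spread between these pools.

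In a mature β cell these genes form a network that is largely self-sustaining. PDX1, MAFA and NEUROD1 bind the insulin promoters and act together there, NKX6-1 and NKX2-2 hold the cell apart from the other islet endocrine types, and PAX6 and ISL1 are shared with those types. MAFA and urocortin 3, the product of *Ucn3*, appear late as the cell matures, and ALDH1A3, which makes retinoic acid from retinaldehyde, is a marker of β cells that have stepped back from the mature state.

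Per the file, the 9 genes lie on mouse genome build mm9 at chr5:148081535-148089584 on the plus strand (*Pdx1*), chr15:75577273-75578352 on the minus strand (*Mafa*), chr5:102087158-102094245, minus (*Nkx6-1*), chr2:147003282-147019979, minus (*Nkx2-2*), chr2:79292678-79296908, minus (*Neurod1*), chr2:105509053-105543317, plus (*Pax6*), chr13:117088489-117099896, minus (*Isl1*), chr13:3939934-3944595, minus (*Ucn3*) and chr7:73535778-73572403, minus (*Aldh1a3*). In the GENCODE M1 annotation of that build, antisense genes overlap *Pdx1* (*2210019I11Rik*), *Nkx2-2* (*Nkx2-2as* and *6430503K07Rik*), *Neurod1* (*Gm17325*) and *Pax6* (*Pax6os1* and *Elp4*), and *Cerkl* overlaps *Neurod1* on the same strand. The stated library preparation does not mark the strand, so reads from these overlaps cannot be told apart. No annotated gene overlaps *Mafa*, *Nkx6-1*, *Isl1*, *Ucn3* or *Aldh1a3*. For *Isl1* the position in that annotation is not the same as the one given here.

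The bases just before the start of 3 of the 9 genes are shown, to set the 2 that hold CAGATG beside 1 that does not. They are from RefSeq on build GRCm38.p6, 5′ to 3′ in the direction of the gene, at chr13:3945350-3945599 (*Ucn3*), chr2:147186403-147186652 (*Nkx2-2*) and chr13:116309689-116309938 (*Isl1*), all on the minus strand. Capitals mark CAGATG, an E box bound by NEUROD1 with its partners, on either strand. Other E box sequences were not searched for, and a part of CAGATG in the levels of these genes was not tested.
Ucn3: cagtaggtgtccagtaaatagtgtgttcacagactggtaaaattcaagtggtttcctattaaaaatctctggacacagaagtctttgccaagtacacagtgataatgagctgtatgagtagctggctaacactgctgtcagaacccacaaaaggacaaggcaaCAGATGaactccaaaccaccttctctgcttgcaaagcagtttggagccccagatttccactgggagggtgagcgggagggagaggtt
Nkx2-2: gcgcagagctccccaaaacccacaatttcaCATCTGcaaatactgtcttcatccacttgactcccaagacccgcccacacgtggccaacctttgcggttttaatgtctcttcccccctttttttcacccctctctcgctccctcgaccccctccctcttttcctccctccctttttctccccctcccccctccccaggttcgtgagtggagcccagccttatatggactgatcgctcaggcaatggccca
Isl1: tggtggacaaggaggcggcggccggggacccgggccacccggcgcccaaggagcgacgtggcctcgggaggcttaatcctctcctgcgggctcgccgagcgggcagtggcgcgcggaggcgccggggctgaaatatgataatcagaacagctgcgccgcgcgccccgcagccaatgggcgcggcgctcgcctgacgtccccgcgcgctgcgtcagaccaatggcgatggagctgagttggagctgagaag
RefSeq gave such windows for 7 of the 9 genes, all but *Mafa* and *Aldh1a3*, with 2 starts for *Pax6*. CAGATG stood in 2 of the 7, 87 bases before the start of *Ucn3* and, on the opposite strand, 220 bases before that of *Nkx2-2*, and in 14.4% of all 32851 promoters. TAATTA, a homeodomain core, stood in none of the 7 and in 4.84% of all promoters, and TGCTGAC, the core of a MAF site, in none and in 3.81%. Of the 3 motifs only CAGATG stood in any of these windows. The windows differed in base composition, with 46.4% G or C in *Ucn3*, 56.4% in *Nkx2-2* and 71.2% in *Isl1*, against a median of 52.4%.

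Values are scores, which the authors normalized and gave as whole numbers, none under 1. They are not known to be corrected for gene length, so levels are compared between samples and never between genes. All 12 β cell libraries held the defining β cell transcripts, with *Ins1* between 218872 and 5791698, but together *Ins1* and *Ins2* made up from 1.31% to 26.6% of a library's scores. Markers of other cells were uneven as well. Acinar markers (9 of 10 listed were measured, led by *Ctrb1*, *Cpb1* and *Cpa1*) took 27.1% and 22.7% of the scores in No Dox 3 and 4, and between 0.000825% and 2.25% in the other β cell libraries. Stromal and pericyte markers (10 of 10, led by *Rgs5*, *Col1a1* and *Col3a1*) summed to 0.00264% and 0.00325% in No Dox 1 and 2, to 0.308% and 1.24% in No Dox 3 and 4, to 0.364% to 1.9% at 1wk Dox, and to 0.0665% to 1.33% at 1wk WD. In a sorted pool, fewer β cells and less RNA of a gene per β cell cannot be told apart.

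*Pdx1*, the homeodomain factor that is needed to form the pancreas and that activates insulin transcription in the adult, had scores of 9405, 8530, 3600 and 1157 in No Dox 1 to 4. It scored 3146, 6753, 6633, 2901 and 7314 at 1wk Dox, then 3727, 4149 and 12821 at 1wk WD. The No Dox samples fell into a high and a low pair, and both other groups lay within or close to their range. *Mafa*, the leucine-zipper activator of insulin transcription that marks maturity, had 16818, 16274, 2652 and 870 at No Dox, a 19.3-fold range. At 1wk Dox *Mafa* had 3844, 6599, 7493, 3022 and 9108, all between the 2 No Dox pairs, and at 1wk WD it had 4439, 4455 and 15323. *Neurod1*, the basic helix-loop-helix partner of both at the insulin promoters, had 5833, 6281, 2113 and 1002 at No Dox, then 2395, 4889, 4200, 1374 and 4965, then 1716, 2540 and 6683. For all 3 insulin activators 1wk WD 3 was as high as or close to No Dox 1 and 2, while No Dox 4 was the lowest of the 12 libraries.

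*Nkx6-1*, which represses the programs of the other endocrine types, scored 11128, 10834, 3541 and 1548 at No Dox, 4502, 9735, 8503, 3953 and 10275 at 1wk Dox, then 2972, 5961 and 13850 at 1wk WD. *Nkx2-2*, needed for β cells to form and to stay β cells, scored 8496, 8487, 4127 and 1304, then 3557, 7226, 6725, 3128 and 7714, then 3129, 4119 and 9796. Both followed the libraries in the same way as the insulin activators. *Pax6*, present in all islet endocrine cells, scored 19901, 21178, 9595 and 3791 at No Dox, 11589, 18775, 22700, 8932 and 20511 at 1wk Dox, then 9094, 11855 and 18779 at 1wk WD. *Isl1*, a LIM-homeodomain factor of all islet endocrine cells, scored 6864, 6534, 3974 and 1642, then 3335, 7279, 7208, 3296 and 7802, then 2247, 3523 and 4377. *Isl1* was the 1 factor whose scores at 1wk WD all lay below those of No Dox 1 and 2 and of 1wk Dox 2, 3 and 5, whereas *Pdx1*, *Nkx6-1*, *Nkx2-2* and *Neurod1* had their highest score of all 12 libraries in 1wk WD 3.

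*Ucn3* encodes a peptide released with insulin that drives somatostatin release from neighbouring δ cells. It scored 11339, 10751, 2160 and 998 at No Dox, 2728, 5003, 3897, 787 and 6710 at 1wk Dox, then 901, 2008 and 7513 at 1wk WD, so that no library of either later time reached No Dox 1 or 2, and 3 of these 8 lay within the No Dox 3 and 4 range or below it. *Aldh1a3* scored 283, 152, 236 and 706 at No Dox, 271, 235, 242, 267 and 266 at 1wk Dox, then 814, 587 and 260 at 1wk WD. Its 5 scores at 1wk Dox were within 1.15-fold of each other, and its 3 highest scores were in 1wk WD 1, No Dox 4 and 1wk WD 2. Most of the factors were low in No Dox 4 and 1wk WD 1 and in the middle of the 12 in 1wk WD 2, while in 1wk Dox 1 and 4 and No Dox 3, where most were lower than in 1wk WD 2, *Aldh1a3* was at 271, 267 and 236.

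**Figure D1:**
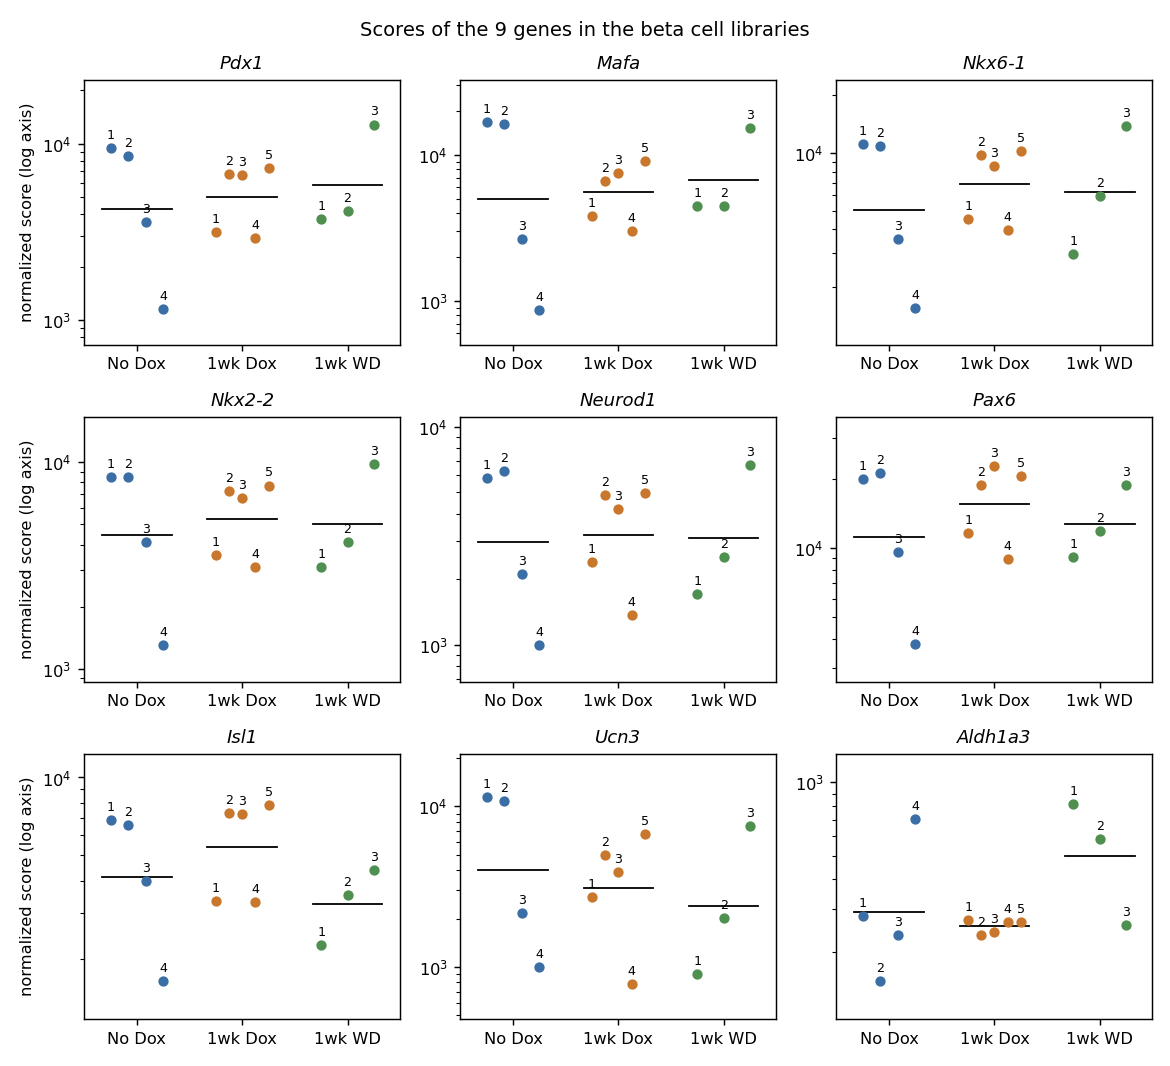
Normalized score (log axis) of each of the 9 genes in the 12 β cell libraries, grouped by time, with the replicate number above each point and a line at the mean of log2(score + 1). In 7 of 9 panels No Dox 4 is the lowest point, No Dox 1 and 2 sit high in all but *Aldh1a3*, and the 3 groups overlap in every panel.

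The first comparison asked whether the identity factors changed while VEGF-A was on. With limma on log2(score + 1), no gene of the 9 passed a fold change of 2 and an adjusted p of 0.05 between 1wk Dox and No Dox, where 0.0122% of 16346 genes passed. At an unadjusted p under 0.05 and the same fold it was again 0 of 9, against 4.04% of all genes, and 0 of 9 had groups that did not overlap, against 2.55%. The 9 log2 differences ran from -0.38 ± 0.88 (SE) for *Ucn3* (6312 at No Dox, 3825 at 1wk Dox) to 0.48 ± 0.50 for *Pax6* (13616 and 16501). *Mafa* differed by 0.14 ± 0.82 although its mean score was lower at 1wk Dox (9154 and 6013), with a 95% interval from -1.65 to 1.94, so that neither a fall nor a rise of 3-fold can be told from no change here. *Isl1*, with one of the smallest errors, differed by 0.38 ± 0.45. The median of the 9 was 0.21, beside 0.03 over all genes, with 7 higher and 2 lower in mean log2 score. Of these 7, *Pdx1*, *Mafa* and *Neurod1* had lower mean scores at 1wk Dox.

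From 1wk Dox to 1wk WD, after Dox was stopped and when β cells recover in this model, 0 of 9 genes passed, as did 0% of all genes, and at an unadjusted p under 0.05 it was 0 of 9 against 2.88%. None of the 9 had groups that did not overlap, against 4.97%. *Aldh1a3* had the largest difference, 0.96 ± 0.48 (256 at 1wk Dox, 554 at 1wk WD, adjusted p = 0.812), followed by *Isl1* at -0.72 ± 0.49 (5784 and 3382). *Pdx1*, *Nkx6-1*, *Nkx2-2* and *Neurod1* lay between -0.13 and 0.23. Leaving out 1wk WD 3 brought *Ucn3* from -0.37 to -1.20 and *Nkx6-1* from -0.13 to -0.70. With 1 replicate left out *Aldh1a3* ran from 0.61 (without 1wk WD 1) to 1.43 (without 1wk WD 3), and *Isl1* from -0.93 (without 1wk WD 3) to -0.45 (without 1wk WD 1).

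Between 1wk WD and No Dox, again 0 of 9 passed, beside 0% of all genes, with 0 of 9 against 4.45% at an unadjusted p under 0.05 and 0 of 9 against 6.44% without overlap. *Ucn3* had the lowest value at -0.75 ± 1.00 (6312 at No Dox, 3474 at 1wk WD), *Aldh1a3* the highest at 0.78 ± 0.50 (344 and 554), and *Isl1* had -0.34 ± 0.51. Leaving out 1wk WD 3 brought *Ucn3* to -1.58, and the replicate block gave -1.37 ± 0.84. *Aldh1a3* ran from 0.42 (without 1wk WD 1) to 1.24 (without 1wk WD 3), and *Isl1* from -0.79 (without No Dox 4) to -0.07 (without 1wk WD 1). The other 6 factors lay between 0.05 and 0.45, and *Mafa*, *Neurod1* and *Pax6* among them had lower mean scores at 1wk WD than at No Dox. The median of the 9 was 0.19, beside 0.06 over all genes.

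The sign of these differences was not stable. Without No Dox 4 all 7 genes that were higher at 1wk Dox had a lower mean log2 score there, *Mafa* by -0.70 and *Isl1* by -0.07. Without both acinar-rich libraries, No Dox 3 and 4, all 8 factors were lower in mean log2 score at both later times, and none passed the test, which 7.36% and 8.74% of all genes then did. *Ucn3* then differed by -1.84 ± 0.84 at 1wk Dox and -2.21 ± 0.92 at 1wk WD (adjusted p = 0.225 and 0.171), and *Mafa* by -1.58 ± 0.53 and -1.30 ± 0.58 (0.105 and 0.198). The remaining No Dox libraries, 1 and 2, are the pair with next to no stromal transcripts, which every 1wk Dox library carried. With the stromal marker level as a covariate all 8 factors were higher instead, and *Mafa* passed at both times (1.79 ± 0.29 at 1wk Dox, adjusted p = 0.00478, and 1.96 ± 0.32 at 1wk WD, adjusted p = 0.0241), as did *Nkx6-1* (1.59 ± 0.34, adjusted p = 0.0264) and *Pax6* (1.35 ± 0.31, adjusted p = 0.0371) at 1wk Dox. That is 3 of 9 and 1 of 9 higher, beside 0.489% and 0.0795% of all genes, and in either direction 2.12% and 0.294% of all genes passed. With all libraries kept, the replicate block turned *Mafa* and *Neurod1* at 1wk Dox to -0.03 and -0.05, and *Mafa*, *Nkx6-1*, *Nkx2-2*, *Neurod1* and *Pax6* at 1wk WD to between -0.39 and -0.09. The directions without No Dox 3 and 4 and with the covariate are opposite, and the part of the admixed cells in either was not tested.

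**Figure D2:**
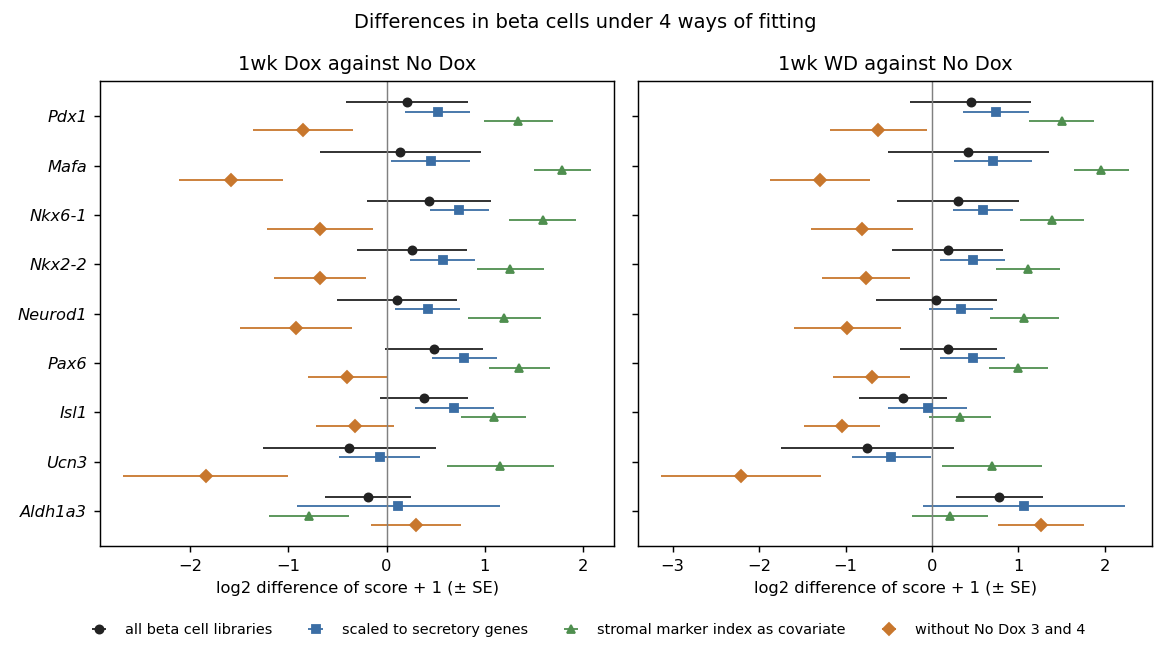
Difference in log2(score + 1), with its standard error, for each gene at 1wk Dox (left) and 1wk WD (right) against No Dox, from limma with all β cell libraries, with scores scaled to 18 β cell secretory genes, with the stromal marker level as a covariate, or without No Dox 3 and 4. For *Mafa* at 1wk Dox the value moves from 0.14 with all libraries to -1.58 without No Dox 3 and 4 and to 1.79 with the covariate.

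Scaled within each library to 18 genes of insulin secretion and glucose sensing, such as *Glp1r* and *Slc30a8*, 7 factors were higher at 1wk Dox by 0.42 to 0.79 with errors of 0.30 to 0.40, and *Ucn3* differed by -0.07 ± 0.41. None of the 9 passed. Taken per 1000 units of *Ins1* and *Ins2* score in the same library, 5 of the 9 were higher at 1wk Dox in every library than in any at No Dox, where 0.795% of all genes were. *Nkx6-1* stood at 1.36 to 2.72 at No Dox and at 3.5 to 9.45 at 1wk Dox, *Pax6* at 2.44 to 6.66 and 7.18 to 21.4, and *Neurod1* at 0.714 to 1.76 and 1.86 to 3.29. *Pdx1* stood at 1.15 to 2.36 and 2.45 to 6.94, and *Nkx2-2* at 1.04 to 2.71 and 2.76 to 7.48. Of the 5, all but *Nkx6-1* were only just apart, and *Mafa*, *Isl1*, *Ucn3* and *Aldh1a3* overlapped. Of 14 other islet transcription factors 2 were apart in the same way, *Insm1* and *Mnx1*, and of 16 other secretory genes 2, *Iapp* and *Ffar1*. At 1wk WD the 3 libraries overlapped both, running from 1.33 to 5.37 for *Nkx6-1*, and 1 of the 9, *Ucn3*, was below 1wk Dox in every library (0.723 to 1.63 against 1.88 to 2.72), as 0.863% of all genes were. This way of counting was chosen after the data were seen, and the ratios carry the spread of insulin itself.

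Across the 12 β cell libraries the 7 transcription factors and *Ucn3* went up and down together. Pearson's r of log2 scores ran from 0.785 to 0.985 over their 28 pairs (median 0.937) and Spearman's rho from 0.713 to 0.972. With each group's mean taken off, r ran from 0.896 to 0.995, and without No Dox 1 and 2 from 0.741 to 0.982. *Aldh1a3* went the other way, with r between -0.764 and -0.572 against each of the 8, but with Spearman's rho only between -0.65 and -0.336. Its r ran from -0.837 to -0.724 with group means taken off, and from -0.759 to -0.486 without No Dox 1 and 2. The libraries share more than these genes: the median of the 8 followed the 18 secretory genes (r = 0.95, rho = 0.97) and ran against the stromal markers (r = -0.68, rho = -0.91, and r = -0.81 without No Dox 1 and 2), while *Aldh1a3* ran with them (r = 0.55, rho = 0.69). Acinar markers moved the same way, with r = -0.52 and rho = -0.42 for the median of the 8 (r = -0.73 without No Dox 1 and 2) and r = 0.44 and rho = 0.34 for *Aldh1a3*. For endothelial and macrophage markers r with that median was -0.13 and -0.15, turning to 0.18 and 0.09 without No Dox 1 and 2, and r of *Aldh1a3* with macrophage markers was 0.41. All of these are descriptions over 12 pooled samples.

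**Figure D3:**
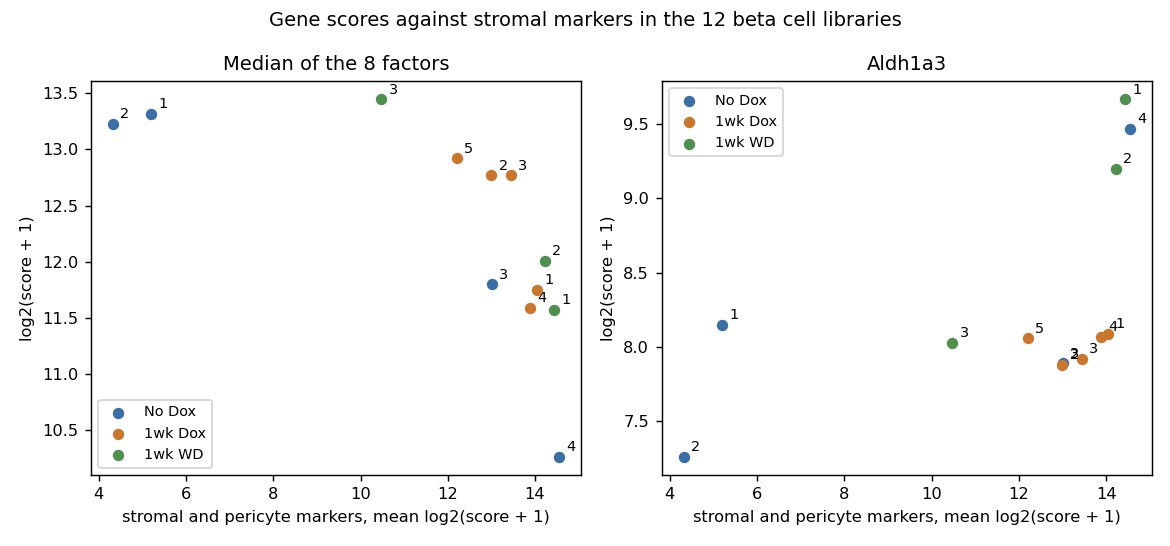
Median log2(score + 1) of the 8 factors (left) and log2(score + 1) of *Aldh1a3* (right) against the mean log2(score + 1) of 10 stromal and pericyte markers in the 12 β cell libraries, colored by time with replicate numbers. The factors are lowest in No Dox 4, at 10.26, which has the most stromal transcripts on this scale, and *Aldh1a3* is high in No Dox 4 and 1wk WD 1 and 2.

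The balance among the factors also differed between libraries. Relative to the mean log2 score of the other 7 factors in its own library, *Ucn3* stood at 0.15 and 0.08 in No Dox 1 and 2, at -0.81 and -0.53 in No Dox 3 and 4, at -2.07 to -0.40 at 1wk Dox and at -1.92, -1.22 and -0.49 at 1wk WD. Its lowest values were in 1wk Dox 4 and 1wk WD 1, and it overlapped between all groups through No Dox 3 and 4. *Mafa* stood at 0.80 and 0.77 in No Dox 1 and 2, at -0.47 and -0.75 in No Dox 3 and 4, at -0.22 to 0.14 at 1wk Dox and at 0.71, 0.10 and 0.68 at 1wk WD. *Pax6*, shared with the other islet endocrine cells, stood lowest in the 3 libraries richest in insulin (1.07 and 1.20 in No Dox 1 and 2, 1.02 in 1wk WD 3) and between 1.45 and 1.93 in the other 9. *Isl1*, shared in the same way, was at -0.68, -0.74 and -1.38 in those 3 and between -0.41 and 0.29 in the rest. *Neurod1* kept within -1.15 and -0.52 in all 12.

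**Figure D4:**
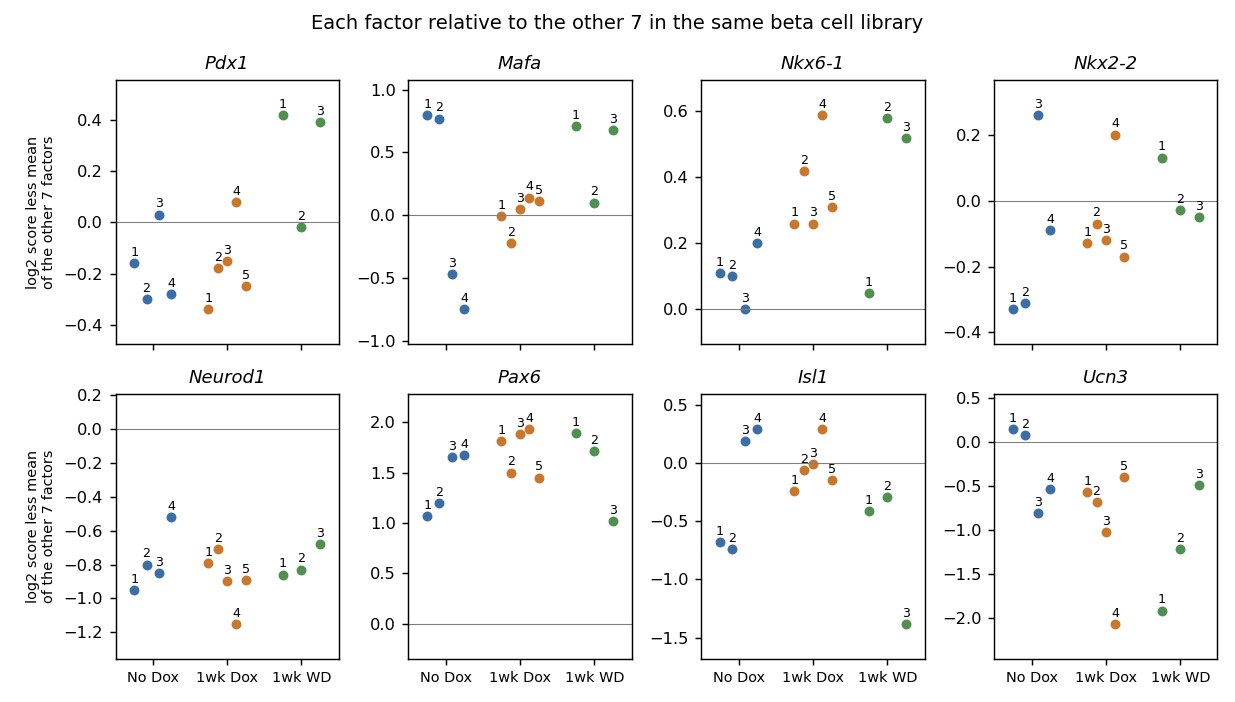
Log2 score of each factor less the mean log2 score of the other 7 in the same β cell library, by time with replicate numbers. *Mafa* splits the No Dox libraries into a pair at 0.77 and 0.80 and a pair at -0.47 and -0.75, *Pax6* and *Isl1* are lowest in No Dox 1 and 2 and 1wk WD 3, and *Neurod1* stays between -1.15 and -0.52.

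Transcripts of other endocrine cells were present beside these shifts. *Gcg*, the glucagon gene of α cells, scored from 26028 to 64922 (No Dox), from 10223 to 93820 (1wk Dox) and from 2313 to 23705 (1wk WD), and *Sst*, the somatostatin gene of δ cells, 6792 to 77372, 15642 to 57646 and 12667 to 56643. Their part in the balance of *Pax6* and *Isl1* was not tested. Of 16 progenitor and non-β endocrine genes 14 were tested and none passed in any of the 3 comparisons, with medians of 0.21 and -0.14 at 1wk Dox and 1wk WD, each against No Dox, and of -0.03 between the later times. *Gcg* had the smallest p at 1wk WD, with a log2 difference of -2.70 ± 0.83 from No Dox and an adjusted p of 0.561. *Neurog3*, which starts the endocrine program in the embryo, scored at most 102, and *Pax4* at most 5.

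Of 16 other islet transcription factors listed, 14 were tested over time in β cells, and 0 passed. Their medians were -0.03 at 1wk Dox and -0.21 at 1wk WD, each against No Dox, and -0.13 between the later times. *Insm1*, a zinc-finger transcription factor of the endocrine lineage, had the smallest p of these at 1wk Dox against No Dox. Its log2 difference was 1.20 ± 0.62 (944 at No Dox, 1675 at 1wk Dox, adjusted p = 0.738). Of the 18 secretory genes 13 were lower and 5 higher in mean log2 score at 1wk Dox, with a median of -0.18, and 0 passed. *Slc2a2*, the glucose transporter GLUT2 and a PDX1 target, differed by -1.46 ± 0.74 (6764 and 1883, adjusted p = 0.738), and *G6pc2* by -0.98 ± 0.79 (45402 and 17853).

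Genes that mature β cells keep low were lowest in No Dox 1 and 2, and 0 of 16 passed the test. All 16 had higher means of log2 score at 1wk Dox than at No Dox (median 1.91) and all 16 at 1wk WD (median 1.96), beside medians of 0.03 and 0.06 over all genes. In mean score, however, 5 of the 16 were lower at 1wk Dox (*Pdgfra*, *Igfbp4*, *Cxcl12*, *Maf* and *Tgm2*) and 3 at 1wk WD (*Ldha*, *Oat* and *Cxcl12*). *Ldha*, lactate dehydrogenase A, scored 37, 50, 1922 and 2496 at No Dox, 2621, 979, 1553, 5391 and 472 at 1wk Dox, then 1018, 1475 and 170 at 1wk WD. *Acot7* scored 20, 1, 687 and 1220, then 684, 214, 733, 1477 and 547, then 1430, 923 and 76. *Tgm2* scored 18, 1, 769 and 1229, then 411, 127, 252, 449 and 221, then 935, 860 and 364, so that No Dox 3 and 4 were above every 1wk Dox library. All 3 were lowest in No Dox 1 and 2, the libraries with the fewest stromal transcripts, and *Pdgfra*, on this list and a stromal marker as well, had 3 and 3 there against 291 to 14446 elsewhere. In mean log2 score all 10 stromal markers were also higher at 1wk Dox (median 3.90) and at 1wk WD (3.72), all 10 endothelial markers likewise (2.19 and 1.20), and all 9 acinar markers lower (-9.18 and -5.84). Macrophage markers had medians of -0.12 and 1.71 and ductal ones of 0.12 and -0.19. Of the stromal markers *Pdgfra*, *Dcn* and *Lum* had lower mean scores at 1wk Dox, and *Rgs5* and *Acta2* at 1wk WD, each compared with No Dox. None of these markers passed the test. A looser cut took an unadjusted p under 0.05 and a 2-fold difference from No Dox. At 1wk Dox 9 of 9 acinar, 4 of 10 stromal, 3 of 10 endothelial, 1 of 10 ductal and 0 of 10 macrophage markers met it. So did 0 of the 16 genes and 4.04% of all genes. At 1wk WD 2 of 9 acinar and 1 of 10 macrophage markers met it, none of the others or of the 16, and 4.45% of all genes. The part of the markers in the higher scores of the 16 genes was not tested.

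By cell type the 9 genes were set apart. Every β cell library scored above every EC and MΦ library for all 9, from 787 against at most 38 for *Ucn3* to 152 against at most 103 for *Aldh1a3*. At No Dox all 9 were higher in β cells than in ECs by the test (21.2% of 16380 genes were), and all 9 higher than in MΦs (23.5%), and at 1wk WD all 9 were higher than in ECs (25.2% of 16435) and than in MΦs (27%). The genes were chosen as β cell factors and the cells sorted by an insulin promoter, so these counts describe the sort and support nothing further. Mean scores in ECs were under 20 for 6 of the 9 at both times, and *Ucn3* at No Dox and *Pdx1*, *Nkx2-2*, *Neurod1*, *Isl1* and *Ucn3* at 1wk WD passed the filter on low scores through β cells alone, so they had to differ. The log2 differences ran from 2.67 ± 0.53 for *Aldh1a3* against ECs at No Dox (adjusted p = 0.00141) to 10.58 ± 1.16 for *Nkx6-1* in the same comparison (6763 and 2.75, adjusted p = 1.86e-05). Against scores this close to the lowest value of 1 the size depends on the pseudocount, and with 20 in place of 1 the 9 ran from 2.27 to 7.81 there. *Mafa* was higher in β cells than in ECs by 5.21 ± 0.85 and than in MΦs by 8.84 ± 0.85 at No Dox.

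**Figure D5:**
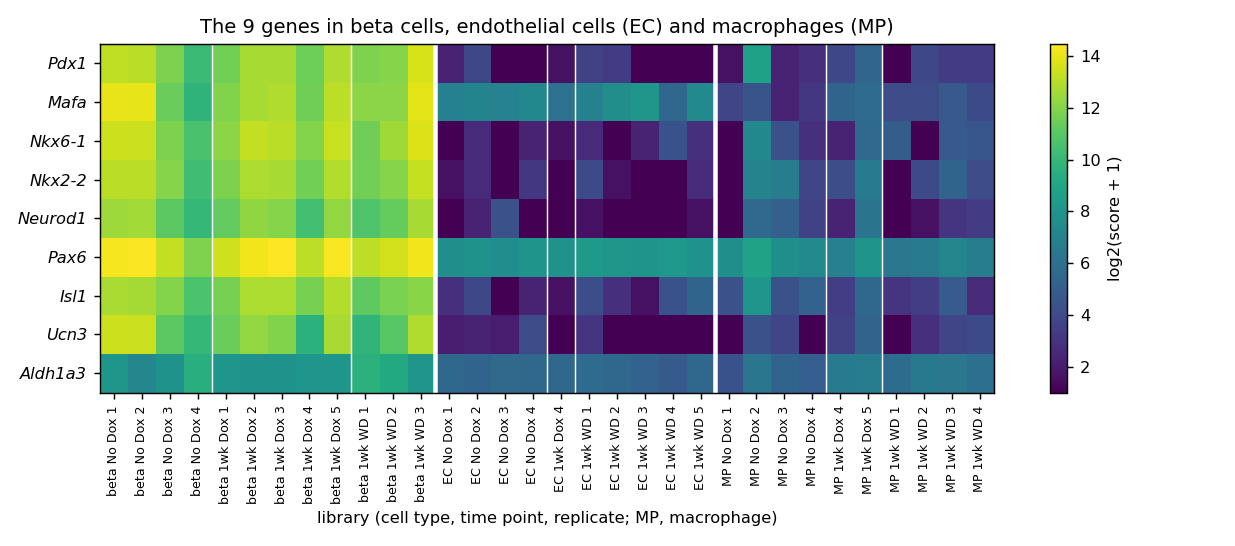
Log2(score + 1) of the 9 genes in all 32 libraries, ordered by cell type, time and replicate, with white lines between groups. β cells stand apart in every row, and MP No Dox 2 is the MΦ library with the highest scores of 5 factors. *Pax6* and *Mafa* keep a low level in ECs that the other factors lack. For *Pax6*, reads of the genes that overlap it cannot be told apart in this level.

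Outside β cells the genes differed in what was left. In ECs *Pdx1*, *Nkx6-1*, *Nkx2-2*, *Neurod1* and *Ucn3* scored at most 20, and *Isl1* at most 39. *Pax6* scored 208, 230, 191 and 250 in ECs at No Dox, 234 in the single 1wk Dox sample and 298, 280, 246, 292 and 237 at 1wk WD, so that all 10 samples lay between 191 and 298. Reads of the overlapping *Elp4* and *Pax6os1* cannot be told apart here, and their part in these scores was not tested. *Ins1* and *Ins2* together ran from 150 to 2963 in the same samples. *Mafa* scored 122, 135, 125 and 157, then 67, then 119, 197, 276, 46 and 168, and *Aldh1a3* between 27 and 52. Only these 3 passed the filter on low scores in ECs, and 0 of the 3 passed between 1wk WD and No Dox, beside 1.76% of 14167 genes, with *Pax6* at 0.30 ± 0.17 (adjusted p = 0.323).

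In MΦs *Pdx1* scored 2, 411, 4 and 6 at No Dox. The high library, No Dox 2, also held the highest *Nkx6-1* (158), *Nkx2-2* (131), *Isl1* (266) and *Pax6* (436). It had 42587 in insulin transcripts, against at most 15905 in the other MΦ libraries. Acinar markers took 23% of its scores, and 0.321%, 0.0781% and 5.61% in No Dox 1, 3 and 4. At 1wk Dox they took at most 0.0111%, and at 1wk WD at most 0.657%. Their part in the MΦ scores was not tested. All 9 genes passed the filter in MΦs and 0 of 9 passed the test at 1wk Dox against No Dox (2.26% of 15014 genes did), at 1wk WD against No Dox (0.626%) or between these (0.0866%). Groups did not overlap for 2, 1 and 2 of the 9 in turn, beside 30.9%, 9.24% and 30% of all genes. *Mafa*, counted in both comparisons with 1wk Dox, passed the filter only through that group (mean scores of 11.8, 46 and 18.2 in order of time), as did *Ucn3* (8.5, 24.5 and 8.75), so these counts support nothing about the 9. *Aldh1a3* scored 20, 78, 40 and 31 at No Dox, 98 and 103 at 1wk Dox, then 53, 87, 79 and 59 at 1wk WD, with 1wk Dox above both other times (1.40 ± 0.59 against No Dox, adjusted p = 0.197). *Pax6* scored 208, 436, 211 and 176 at No Dox, 115 and 250 at 1wk Dox, then 80, 92, 144 and 103 at 1wk WD, all 4 below No Dox (-1.23 ± 0.38, adjusted p = 0.125).

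The genes nearest to each factor over the 12 β cell libraries, of 16345 compared on log2 scores, were named by Pearson's r. *Pdx1* was nearest to *Nipal3* (r = 0.987), *Nkx2-2* (0.985) and *Ina* (0.981), and *Nkx2-2* to *Scn9a*, a voltage-gated sodium channel (0.992), *Nipal3* (0.986) and *Pdx1* (0.985). *Mafa* was nearest to *Glp1r*, the GLP-1 receptor (0.975), then to *Nipal3* (0.971) and *Slc23a2* (0.970). *Nkx6-1* was nearest to *Gng4*, *Entpd3* and *Gnao1* (0.984 each), *Neurod1* to *Ids* (0.993), *Fam135a* (0.991) and *Dennd4c* (0.988), and *Pax6* to the potassium channel gene *Kcnb2* (0.990), *Fhdc1* (0.979) and *Ccdc64* (0.977). *Isl1* was nearest to *Tspyl4* (0.971), *Mapk4* (0.970) and *Stk32a* (0.969), and *Ucn3* to *Slc38a4* (0.989), *B3galt5* and *Dmxl2* (0.987 each). *Aldh1a3* had lower values, with *Zfp592* and the estrogen receptor gene *Esr1* (0.930 each) and the EGF receptor gene *Egfr* (0.927), and for *Egfr* Spearman's rho was 0.510. With so many genes compared over 12 libraries whose composition varies for all genes at once, these are descriptions of likeness.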

How the data were processed

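Per the labels, 3 cell types were sorted from islets, and their RNA was amplified, sequenced as paired-end reads of 50 bp on an Illumina HiSeq2500 and aligned to mm9 with TopHat2 (version 2.0 in the submitters' processing notes). The deposited values are scores: the authors applied TMM normalization with Avadis NGS software, and the values are whole numbers from 1 to 6456823. No read number can be had from a score, which leaves the sequencing depth and the counting error of low scores unknown. Summed scores per sample are between 23465985 and 53441769. The table has 38 columns of sample values, of which 32 were used and 6, which match no sample here, were not. Samples were grouped by their labels.

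The test was limma 3.58.1 (R 4.3.3) on log2(score + 1) with a trend of the spread, for genes whose mean score reached 20 in any group of the fit. The 3 β cell times shared 1 fit, as did the MΦ times. ECs were fitted at No Dox and 1wk WD, and the cell types were compared at No Dox and at 1wk WD. Passing required at least a 2-fold difference and an adjusted p (Benjamini-Hochberg, over all genes tested) of less than 0.05. Alternatives were a pseudocount of 20, no filter or a minimum mean of 200, median-of-ratios or quantile scaling, no trend, a fit of the 2 groups alone, a replicate block, division by insulin scores, and each replicate left out. Scaling to secretory genes, the stromal covariate (the mean log2 score of the 10 markers) and leaving out No Dox 3 and 4 were added after the data were seen. The fits were tested on simulated data. Named were the 9 genes, *Ins1* and *Ins2*, up to 3 genes of smallest p per list and comparison, the 3 most abundant genes per marker list and the 3 genes nearest to each member, and *Neurog3*, *Pax4*, *Iapp*, *Ffar1*, *Igfbp4*, *Cxcl12*, *Oat* and *Dcn* were named in addition after their values were seen. The 9 genes and all lists were chosen with earlier results of these data known. Python 3.11.15 with pandas 2.3.3, numpy 2.4.6 and matplotlib 3.10.9 made the tables and figures.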

Additional observations from a re-analysis of the deposited data

Results flagged for a closer look

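Among the 9 genes, 54 groups of 4 or more samples were examined for a sample that stands far from the rest, and 4 were found, where chance gives about 1 in 20. All 4 are low scores outside β cells. *Nkx6-1* was at 1 in MΦ 1wk WD replicate 2 and between 23 and 30 in the other 3 (gap 0.907 of the range of log2 scores). *Mafa* was at 26 in MΦ 1wk WD replicate 3 and at 15 or 16 in the others (0.884). *Ucn3* was at 16 in EC No Dox replicate 4 against 3 or 4 (0.846), and at 7 in EC 1wk WD replicate 1 with 1 in all others (1.0).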

How the results depend on the processing

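The cell type differences kept their direction in all 585 refits, and all 9 genes passed in each. In ECs and MΦs over time 0 of the 9 genes passed under any alternative. In β cells over time 0 of 9 passed except with the stromal covariate, which gave 3 for 1wk Dox and 1 for 1wk WD, each set against No Dox. The count over all genes, 2 at 1wk Dox against No Dox, became 1 with no filter or only the 2 groups, 4 with quantile scaling, 347 with the stromal covariate and 1199 without No Dox 3 and 4, and ran from 1 to 26 with 1 replicate left out, 26 being without No Dox 2. The count of 0 at 1wk WD against No Dox became 1 with a pseudocount of 20, no filter or no trend, 48 with the covariate and 1424 without No Dox 3 and 4, and ran from 0 to 2 with 1 left out. The count of 0 at 1wk WD against 1wk Dox became 1 with no filter or no trend and 39 with the covariate. Divided by insulin, the median of the 9 differences at 1wk WD against 1wk Dox moved from -0.08 to -0.73, and against No Dox the medians went from 0.21 to 1.04 at 1wk Dox and from 0.19 to 0.37 at 1wk WD.

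Directions turned as follows at 1wk Dox against No Dox. Without No Dox 3 and 4 the log2 differences were -0.85 (*Pdx1*), -1.58 (*Mafa*), -0.68 (*Nkx6-1* and *Nkx2-2*), -0.92 (*Neurod1*), -0.40 (*Pax6*), -0.32 (*Isl1*) and 0.30 (*Aldh1a3*). *Ucn3* turned to 1.16 with the covariate and *Aldh1a3* to 0.12 when scaled to secretory genes. With 1 replicate left out the values ran from -0.42 to 0.59 (*Pdx1*), -0.70 to 0.73 (*Mafa*), -0.14 to 0.81 (*Nkx6-1*), -0.33 to 0.57 (*Nkx2-2*), -0.41 to 0.47 (*Neurod1*), -0.04 to 0.79 (*Pax6*), -0.07 to 0.62 (*Isl1*), -1.05 to 0.12 (*Ucn3*) and -0.50 to 0.24 (*Aldh1a3*).

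At 1wk WD against No Dox the values without No Dox 3 and 4 were -0.62 (*Pdx1*), -1.30 (*Mafa*), -0.81 (*Nkx6-1*), -0.76 (*Nkx2-2*), -0.98 (*Neurod1*) and -0.70 (*Pax6*), and the covariate gave 0.32 (*Isl1*) and 0.69 (*Ucn3*). With 1 left out they ran from -0.18 to 0.83 (*Pdx1*), -0.42 to 1.00 (*Mafa*), -0.27 to 0.84 (*Nkx6-1*), -0.41 to 0.52 (*Nkx2-2*), -0.51 to 0.47 (*Neurod1*) and -0.33 to 0.49 (*Pax6*). At 1wk WD against 1wk Dox they ran from -0.33 to 0.56 (*Pdx1*), -0.32 to 0.58 (*Mafa*), -0.70 to 0.41 (*Nkx6-1*), -0.56 to 0.26 (*Nkx2-2*), -0.62 to 0.36 (*Neurod1*) and -1.20 to 0.33 (*Ucn3*). The cause of these turns was not tested.

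Same-numbered β cell samples of 2 times had deviations correlated from -0.48 to 0.34, and not every sample correlated best with its own number. The main fit did not pair samples by number. With so few pools of uneven composition, these correlations cannot exclude a pairing. With the replicate number as a block 0 of all genes and 0 of 9 passed in the 3 β cell comparisons, and small differences turned: at 1wk Dox to -0.03 (*Mafa*) and -0.05 (*Neurod1*), at 1wk WD against No Dox to -0.12 (*Mafa*), -0.09 (*Nkx6-1*), -0.22 (*Nkx2-2*), -0.39 (*Neurod1*) and -0.19 (*Pax6*), and at 1wk WD against 1wk Dox to -0.04 (*Pdx1*) and -0.08 (*Mafa*). In the cell type, EC and MΦ comparisons the block changed no count of the 9.

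Depth cannot be read from scores, and 1 EC sample and 2 MΦ samples at 1wk Dox limit what these cells show. The scaling, the covariate and leaving out No Dox 3 and 4 were chosen after the data were seen.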
